A study of Homo sapiens with 12 samples.

Results

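The 10 genes described here encode the proteins that place and keep DNA methylation (DNMT1, DNMT3A, DNMT3B, UHRF1 and UHRF2) and those that oxidise or excise modified cytosine and its products (TET1, TET2, TET3, TDG and MBD4). They were taken by gene name from 19923 genes counted in each library. UHRF1 was chosen by its measured rise in NGP, which was among the largest of the cell cycle genes, so its NGP values, and any contrast that contains them, are given as a description without a test. The other 9 genes were listed for their function, but with earlier results of these data known. Their counts may therefore not be independent of those results. RNA was sequenced from human neuroblastoma cells of the established lines SK-N-BE2 and NGP, which have amplified MYCN and no engineered change (genotype WT in the labels). SK-N-BE2 cells were kept for 6 days with 12 µM STM2457 or with DMSO, and NGP cells for 6 days with 1 µM STM2457 or with DMSO. STM2457 is a small-molecule inhibitor of METTL3, the enzyme that writes N6-methyladenosine on messenger RNA. The 12 libraries form 4 groups of 3 replicates, and each dose was given to a single line. The labels do not say that replicates came from separate cultures, so p-values measure the spread between these libraries, which may be technical.

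Libraries held between 47242379 and 58159937 counted reads. The file headers name a different sequencing run folder for each line, and effects of run, of line and of dose cannot be told apart in any comparison between lines. METTL3 RNA, the target of a drug that blocks the enzyme and not its transcript, in SK-N-BE2 ranged from 51.2 to 57.6 CPM (reads scaled to library size) with DMSO and from 78.3 to 81.0 CPM with STM2457. In NGP it ranged from 37.0 to 44.4 CPM and from 74.2 to 79.0 CPM. Of 9 sympathoadrenal neuroblastoma markers, 8 reached 1 CPM in every group. In NGP, TH was near 0 (0.158 to 1.11 CPM). The summed level of 6 markers of leukocytes, T cells, epithelium, endothelium and hepatocytes was 7.45 to 12.8 CPM in SK-N-BE2 with DMSO and 8.12 to 9.97 CPM with STM2457. It was 1.68 to 2.05 CPM and 1.40 to 2.07 CPM in NGP, where PTPRC, PECAM1 and CD3E had 0 reads. One library stood apart in a way that touches the TET genes, the first DMSO replicate of NGP, and its values are given with them. CPM here is scaled by edgeR's trimmed mean of M values (TMM) over all 12 libraries.

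Methylation of cytosine in CpG dinucleotides is copied after each round of DNA replication. UHRF1 binds the hemimethylated CpG of the new duplex and recruits DNMT1, which methylates the new strand, while DNMT3A and DNMT3B set methylation on unmethylated DNA. The TET dioxygenases oxidise 5-methylcytosine with 2-oxoglutarate as co-substrate, and the glycosylase TDG removes the higher oxidation products, which base excision repair then replaces with cytosine. MBD4 is a glycosylase that acts on the T:G mismatch left when methylcytosine deaminates. UHRF1 and DNMT1 are known as genes of the S phase, whose promoters are targets of E2F factors in many cell types.

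The promoters of UHRF1, DNMT1, TDG and MBD4 are shown because DNMT1, TDG and MBD4 passed the test between STM2457 and DMSO in both lines, and UHRF1 in the line where it was tested. Each stretch runs from 250 bases before to 50 bases after a transcription start of RefSeq (build GRCh38.p14), 5′ to 3′ on the gene's strand. Capitals mark the letters searched on both strands, either E2F-type letters or CCAAT. The E2F-type letters were TTCCCGC and its variants with other central bases, which were TTCGCGC as one, then the form TTGGCGC and the form TTGCCGC. The reverse complement of TTGGCGC ends in CCAA and can therefore overlap CCAAT. UHRF1 lies at chr19:4909251-4909550 on the plus strand, DNMT1 at chr19:10194904-10195203 on the minus strand, TDG at chr12:103965622-103965921 on the plus strand and MBD4 at chr3:129439899-129440198 on the minus strand.
UHRF1: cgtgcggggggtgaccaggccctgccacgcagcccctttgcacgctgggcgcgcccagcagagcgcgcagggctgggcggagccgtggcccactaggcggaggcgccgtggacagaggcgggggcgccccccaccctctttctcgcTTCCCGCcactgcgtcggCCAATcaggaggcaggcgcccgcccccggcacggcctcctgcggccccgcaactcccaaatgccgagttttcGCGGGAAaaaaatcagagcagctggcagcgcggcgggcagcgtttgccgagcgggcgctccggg
DNMT1: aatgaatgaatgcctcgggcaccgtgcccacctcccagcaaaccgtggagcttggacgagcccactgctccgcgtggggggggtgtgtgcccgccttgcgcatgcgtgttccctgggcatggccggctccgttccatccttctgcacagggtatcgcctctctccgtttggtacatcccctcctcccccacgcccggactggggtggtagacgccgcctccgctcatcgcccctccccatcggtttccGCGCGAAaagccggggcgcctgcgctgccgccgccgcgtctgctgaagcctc
TDG: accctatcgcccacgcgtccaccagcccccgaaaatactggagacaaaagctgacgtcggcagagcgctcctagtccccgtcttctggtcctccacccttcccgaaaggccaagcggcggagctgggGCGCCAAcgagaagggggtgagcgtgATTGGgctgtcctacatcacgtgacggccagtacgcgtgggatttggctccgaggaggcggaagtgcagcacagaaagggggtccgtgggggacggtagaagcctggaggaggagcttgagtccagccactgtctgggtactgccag
MBD4: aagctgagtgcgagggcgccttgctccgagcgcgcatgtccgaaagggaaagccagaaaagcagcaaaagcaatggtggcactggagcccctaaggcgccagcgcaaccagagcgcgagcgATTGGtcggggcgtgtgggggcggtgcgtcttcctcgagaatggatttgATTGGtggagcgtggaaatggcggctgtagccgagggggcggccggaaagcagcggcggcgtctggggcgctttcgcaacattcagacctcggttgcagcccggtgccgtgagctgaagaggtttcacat
This UHRF1 promoter, the first of 3 starts in the table, held 2 matches to E2F-type letters and 1 to CCAAT among 36 CpG. The DNMT1 promoter held 1 E2F-type match and 30 CpG, and TDG held 1 match of each kind and 22 CpG. MBD4 held 2 CCAAT matches, no E2F-type letters and 29 CpG. The median promoter of all 35116 had 14 CpG. All 10 genes matched the table, with 21 starts between them, of which 6 held E2F-type letters (the first and second start of UHRF1, the first of TET3, and those of DNMT1, UHRF2 and TDG). Over all promoters of the same length, 13% held E2F-type letters, 34.6% held CCAAT and 4.45% held both. Some of the 21 stretches overlap each other, among the starts of DNMT3A, of UHRF1 and of TET1. The third start of UHRF1 held neither kind of letters. The shares over all promoters were not matched for CpG. These matches describe letters only, and the counts do not show which start the cells used.

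In SK-N-BE2, 6 of the 10 genes passed the test between STM2457 and DMSO (edgeR's quasi-likelihood test, adjusted p under 0.05 after Benjamini-Hochberg adjustment over all genes tested). DNMT1, UHRF1, UHRF2 and TDG rose, and TET3 and MBD4 fell. That share is near the background, since 54.7% of all 14013 genes tested passed, 26.9% higher and 27.8% lower. In NGP, 5 of the 9 genes other than UHRF1 passed (DNMT1, DNMT3A, DNMT3B, TDG and MBD4), all higher with STM2457, where 41.7% of 13610 genes passed, 19.4% higher and 22.2% lower. No member was called lower in NGP by edgeR, also at an unadjusted p under 0.05, and DESeq2 called 0 lower as well. The median log2 fold change was 0.21 over the 10 genes in SK-N-BE2 and 0.27 over the 9 genes in NGP, beside medians of -0.02 and -0.03 over all genes tested. All 10 genes passed the filter on low counts in every fit. Replicates of the 2 groups did not overlap for 8 genes in SK-N-BE2, of which 5 were higher and 3 lower with STM2457, beside 62.2%, 33.1% and 29.1% of all genes. In NGP they did not overlap for 6 of the 9 genes, all higher, beside 54.7% in either direction, 26.9% higher and 27.8% lower. In bulk RNA, a larger share of expressing cells and more RNA per cell cannot be told apart.

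**Figure D1:**
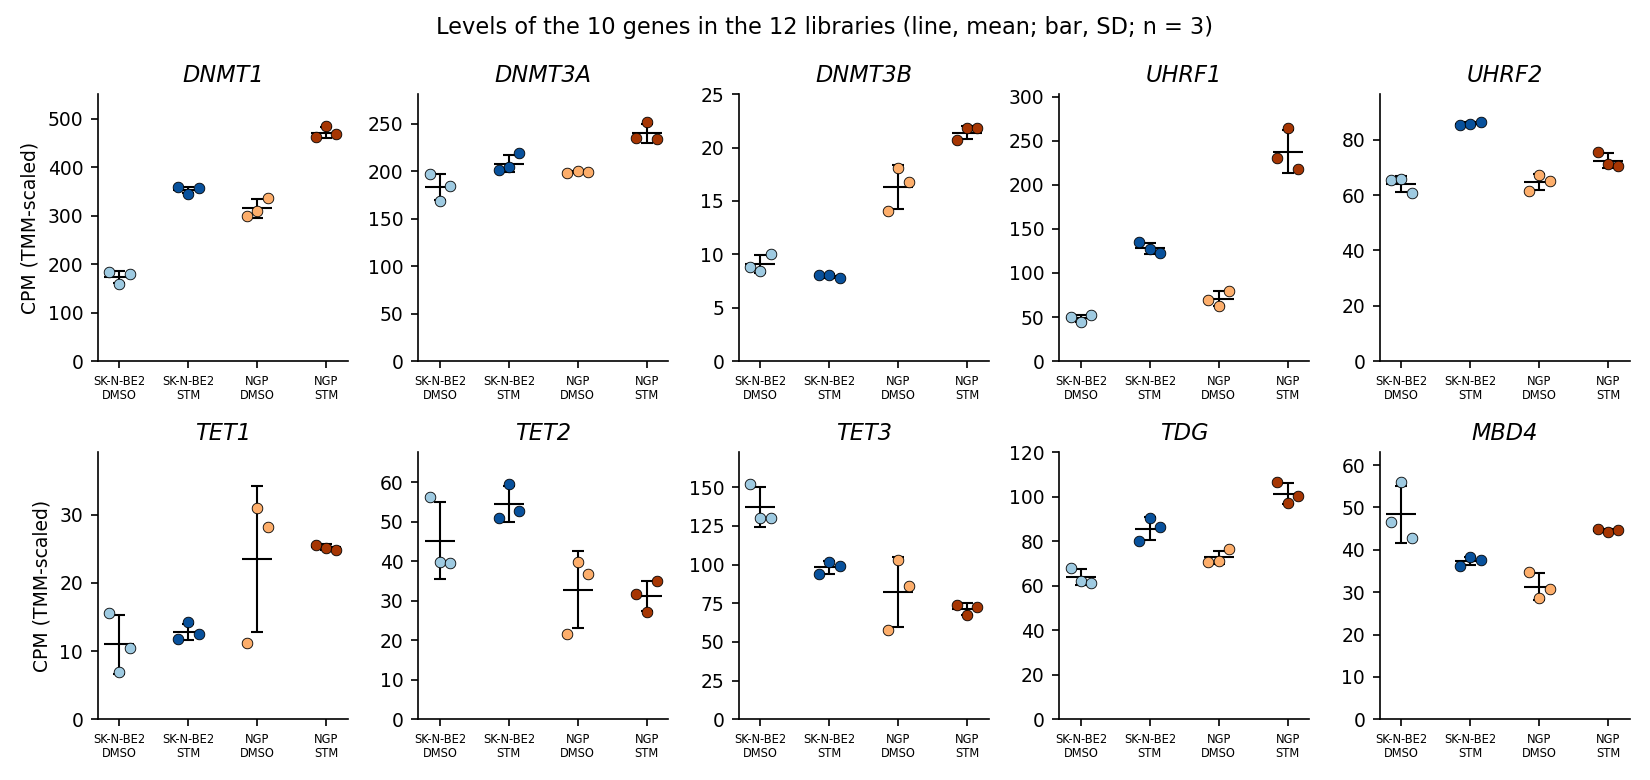
TMM-scaled CPM (vertical axes, starting at 0) of each of the 10 genes in the 4 groups, with 1 point per library, a line at the mean and a bar of 1 SD (n = 3). DNMT1, UHRF1 and TDG are higher with STM2457 in both lines with no overlap between replicates, MBD4 is lower in SK-N-BE2 and higher in NGP, and the DMSO replicates of the TET genes are spread widely.

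UHRF1 (chr19:4903080-4962154, plus strand, all coordinates on GRCh38 as in the deposited files) is the reader of hemimethylated CpG that brings DNMT1 to newly copied DNA. In SK-N-BE2 its level was 50.0, 44.1 and 51.9 CPM with DMSO and 134.9, 127.3 and 122.2 CPM with STM2457. The groups did not overlap, and every treated library was more than double every control. The means were 48.6 ± 4.07 and 128.1 ± 6.38 CPM (SD, n = 3). The rise fitted on the 6 libraries of the line was 2.57-fold (log2 1.36 ± 0.09 SE, edgeR adjusted p = 5.3e-08), and fold changes are fitted values in this way throughout. In NGP, where it was chosen, the level was 68.9, 63.1 and 79.8 CPM with DMSO and 230.5, 264.5 and 218.4 CPM with STM2457. The 3 treated libraries all lay above the 3 controls, and the fitted difference was 1.75 ± 0.12 on the log2 scale (SE, n = 3), or 3.37-fold. The 4 groups did not overlap in any pair of neighbours, in the order NGP with STM2457, SK-N-BE2 with STM2457, NGP with DMSO and SK-N-BE2 with DMSO.

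DNMT1 (chr19:10133345-10231286, minus strand) is the maintenance methyltransferase, the enzyme that UHRF1 recruits. Its level in SK-N-BE2 was 183.4, 158.8 and 179.3 CPM with DMSO and 358.5, 346.1 and 356.6 CPM with STM2457. The treated libraries were close together and far above the controls. The rise was 1.98-fold (log2 0.99 ± 0.08 SE, edgeR adjusted p = 6.72e-07). In NGP the controls held 299.2, 310.6 and 337.6 CPM and the treated libraries 462.2, 485.1 and 468.2 CPM. These groups also did not overlap, and the rise was 1.50-fold (log2 0.58 ± 0.09, edgeR adjusted p = 0.00135). The 4 groups had the same order as for UHRF1, again with no overlap between neighbours. DNMT1 shared 0.847% of its exon length with S1PR2 on the same strand.

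UHRF2 (chr9:6413151-6507054, plus strand) is the paralog of UHRF1, which has a similar domain arrangement and is not known to replace it in maintenance. It stood at 65.3, 66.0 and 60.7 CPM with DMSO in SK-N-BE2 and at 85.4, 85.8 and 86.5 CPM with STM2457. The treated replicates lay within 2 CPM of each other and above all controls, a 1.31-fold rise (log2 0.39 ± 0.08, edgeR adjusted p = 0.00083). In NGP the values were 61.6, 67.4 and 65.2 CPM with DMSO and 75.7, 71.2 and 70.6 CPM with STM2457. The treated libraries lay above the controls there too, but the log2 fold change of 0.17 ± 0.09 did not pass the test (edgeR adjusted p = 0.191). The DMSO groups of the 2 lines overlapped.

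Levels can be compared between genes only per length, here as CPM per kb of exon. The length is that of all annotated exons of a gene, and the transcripts in these cells may be shorter. Ratios and ranks between genes are therefore approximate. With DMSO, UHRF1 stood at 0.533 ± 0.0165 (SD, n = 3) of the DNMT1 level per kb in SK-N-BE2 and at 0.425 ± 0.0336 in NGP. With STM2457 the ratio was 0.690 ± 0.0333 in SK-N-BE2. In NGP with STM2457 it was 0.959 ± 0.0753, with single libraries at 0.950, 1.04 and 0.888, so the UHRF1 and DNMT1 levels per kb overlapped in that group only. UHRF2 stood at 0.687 ± 0.0857 of the UHRF1 level per kb with DMSO and 0.348 ± 0.0194 with STM2457 in SK-N-BE2. The same ratio was 0.480 ± 0.0667 and 0.159 ± 0.0170 in NGP. In each line the replicates of the treated and control ratios did not overlap. The NGP ratios contain the values by which UHRF1 was chosen and are descriptions.

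DNMT3A (chr2:25227855-25342590, minus strand) is a de novo methyltransferase. It held 197.0, 168.8 and 184.3 CPM with DMSO and 200.9, 204.4 and 218.6 CPM under STM2457 in SK-N-BE2. The treated libraries lay just above the controls, but the log2 fold change of 0.15 ± 0.08 did not pass the test (edgeR adjusted p = 0.16). In NGP the controls held 198.1, 199.8 and 199.5 CPM and the treated libraries 234.4, 251.5 and 233.6 CPM. The groups did not overlap, and the rise of 0.27 ± 0.09 on the log2 scale passed (edgeR adjusted p = 0.0322). That call was lost on leaving out either the second or the third DMSO replicate or any 1 STM2457 replicate of NGP, with adjusted p up to 0.104. It was also lost when each library's trend with exon length was removed (adjusted p = 0.14).

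DNMT3B (chr20:32762385-32809356, plus strand), the other de novo enzyme, was the scarcer of the pair per kb in every group. In SK-N-BE2 it held 8.80, 8.44 and 10.0 CPM with DMSO and 8.07, 8.10 and 7.81 CPM with STM2457. The treated libraries all lay below the controls, with a log2 fold change of -0.22 ± 0.12 that did not pass (edgeR adjusted p = 0.138). In NGP it held 14.1, 18.1 and 16.8 CPM with DMSO and 20.7, 21.8 and 21.8 CPM with STM2457. The groups did not overlap and the rise was 1.31-fold (log2 0.39 ± 0.13, edgeR adjusted p = 0.0366). Leaving out the third DMSO replicate or any 1 STM2457 replicate of NGP ended that call, with adjusted p up to 0.121, as did removing each library's trend with GC content (adjusted p = 0.0592). DNMT3A stood at 7.80 ± 0.774 times the DNMT3B level per kb in SK-N-BE2 with DMSO and 10.0 ± 0.655 times with STM2457. In NGP the ratio was 4.75 ± 0.603 and 4.32 ± 0.166, where the replicates of the 2 groups overlapped.

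TET1 (chr10:68560337-68694487, plus strand), TET2 (chr4:105145875-105279816, plus strand) and TET3 (chr2:73986404-74108176, plus strand) oxidise 5-methylcytosine. In SK-N-BE2 TET3 passed the test, and TET1 and TET2 did not. There TET3 held 152.1, 129.8 and 129.9 CPM with DMSO and 93.8, 101.9 and 99.2 CPM with STM2457. All 3 treated libraries lay below all controls, a fall of 0.52 ± 0.09 on the log2 scale, or 1.43-fold lower (edgeR adjusted p = 0.00021). In NGP the controls were spread over 58, 102.7 and 86.0 CPM, and the treated libraries stood at 74.0, 67.1 and 72.6 CPM, inside that range. The log2 fold change of -0.20 ± 0.19 did not pass (edgeR adjusted p = 0.413).

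TET2 held 56.3, 39.8 and 39.5 CPM with DMSO and 50.9, 59.5 and 52.7 CPM under STM2457 in SK-N-BE2 (log2 fold change 0.23 ± 0.13, edgeR adjusted p = 0.139). Its controls in NGP were at 21.7, 39.9 and 36.8 CPM and its treated libraries at 31.6, 27.1 and 34.9 CPM (log2 -0.07 ± 0.22, edgeR adjusted p = 0.824). The groups overlapped in both lines. TET1, the scarcest TET gene per kb in SK-N-BE2, held 15.6, 7.0 and 10.4 CPM with DMSO and 11.8, 14.2 and 12.5 CPM with STM2457 there (log2 0.18 ± 0.21, edgeR adjusted p = 0.485). In NGP it held 11.2, 30.9 and 28.2 CPM with DMSO and 25.6, 25.1 and 24.8 CPM with STM2457 (log2 0.10 ± 0.31, edgeR adjusted p = 0.815). The treated replicates of TET1 in NGP were nearly equal, whereas 1 control lay far below the other 2.

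That control was the first DMSO replicate of NGP. Against the mean of the other 2 DMSO replicates, TET1 was at -1.39, TET2 at -0.82 and TET3 at -0.70 on the log2 CPM scale in this library. Over the 2535 genes that make up the longest 20% by exon length, from 8659 bases, the median was -0.35, and over the 2535 of the shortest 20%, up to 3094 bases, it was 0.39. DNMT1, DNMT3A, UHRF2 and the 3 TET genes are among the longest 20%. The first DMSO replicate of SK-N-BE2 had a smaller trend the other way, with medians of 0.17 for the longest and -0.18 for the shortest 20%. TET1, TET2 and TET3 were at 0.86, 0.51 and 0.23 there against its other 2 DMSO replicates, and TET1 was at -0.86 in the second DMSO replicate. The part of the length trend in the TET values was not tested.

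Leaving out that NGP library changed the calls of all 3 TET genes. Without it, TET1 was at -0.23 (edgeR adjusted p = 0.0383), TET2 at -0.29 (edgeR adjusted p = 0.0409) and TET3 at -0.40 (edgeR adjusted p = 0.00318) on the log2 scale with STM2457. The count of called genes in NGP then went from 5 to 8, of which 3 were lower, while calls over all genes went from 5671 to 7897. The medians of the shortest and longest 20% in the NGP response went from -0.06 and 0.02 to 0.08 and -0.08. Without the first DMSO replicate of SK-N-BE2, TET1 (log2 0.52, edgeR adjusted p = 0.0186) and TET2 (log2 0.42, edgeR adjusted p = 0.00216) were called higher in that line, and TET3 was still called lower. The count there went from 6 to 8, and that over all genes from 7665 to 7849. The medians of the shortest and longest 20% in the SK-N-BE2 response went from -0.125 and 0.103 to -0.179 and 0.158. With all libraries kept and length trends removed, TET1 (log2 0.099, edgeR adjusted p = 0.669) and TET2 (log2 0.097, edgeR adjusted p = 0.394) did not pass there. TET3 was still called lower in SK-N-BE2 (log2 -0.628, edgeR adjusted p = 3.45e-06). In NGP the same fit did not call TET1 (log2 0.116, edgeR adjusted p = 0.727) or TET2 (log2 -0.110, edgeR adjusted p = 0.526). TET3 did not pass in NGP either (log2 -0.212, edgeR adjusted p = 0.14).

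**Figure D2:**
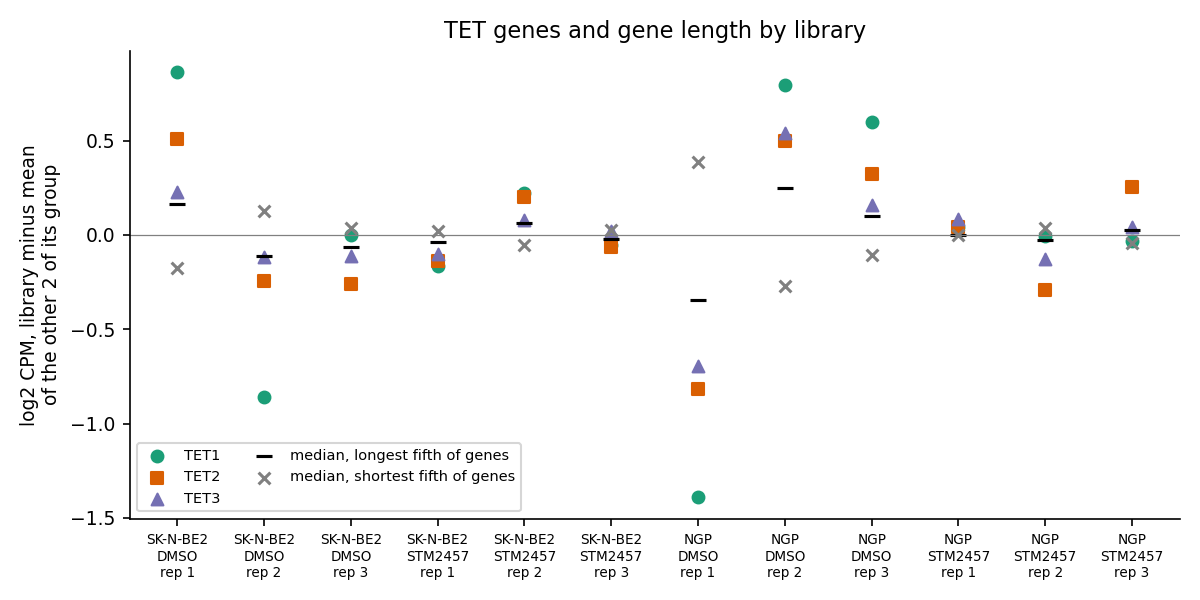
Log2 CPM of TET1, TET2 and TET3 in each of the 12 libraries minus the mean of the other 2 libraries of its group (vertical axis), with the same median over the longest and the shortest 20% of genes. In the first DMSO replicate of NGP the TET genes lie between -1.39 and -0.70 and the longest 20% at -0.35, while the shortest 20% lie at 0.39.

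TET3 was the largest part of TET RNA in every group. Per kb of exon, it made up 74.5% ± 3.08 (SD, n = 3) of the summed TET level in SK-N-BE2 with DMSO and 63.4% ± 1.21 with STM2457. In NGP it made up 60.9% ± 4.12 and 56.3% ± 0.534. In both lines the replicates of the treated and control shares did not overlap. The TET genes summed to 15.1 ± 2.05 CPM per kb with DMSO and 12.6 ± 0.713 with STM2457 in SK-N-BE2. In NGP the sums were 11.1 ± 3.52 and 10.3 ± 0.516. DNMT1 stood at 1.07, 1.18 and 1.30 times that sum per kb in SK-N-BE2 with DMSO and at 3.06, 2.64 and 2.89 times with STM2457. In NGP the ratio was 4.24, 2.26 and 2.83 with DMSO and 4.44, 5.09 and 4.51 with STM2457. The groups did not overlap in either line, although the first DMSO replicate of NGP was close to its treated group.

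TDG (chr12:103965822-103988874, plus strand) excises the oxidation products that TET enzymes make. It held 67.8, 62.2 and 61.3 CPM with DMSO and 80.1, 90.4 and 86.4 CPM under STM2457 in SK-N-BE2. The groups did not overlap and the rise was 1.31-fold (log2 0.39 ± 0.08, edgeR adjusted p = 0.00138). In NGP the values were 70.9, 71.2 and 76.4 CPM with DMSO and 106.8, 97.2 and 100.4 CPM with STM2457, a 1.40-fold rise (log2 0.48 ± 0.09, edgeR adjusted p = 0.00393). TDG has processed pseudogenes and multi-mapping reads were not counted, so its absolute level is uncertain.

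MBD4 (chr3:129430944-129440179, minus strand), the glycosylase of deaminated methylcytosine, moved in opposite directions in the 2 lines. In SK-N-BE2 it held 46.5, 55.9 and 42.7 CPM with DMSO and 36.2, 38.2 and 37.5 CPM with STM2457. All treated libraries lay below all controls, a fall of 0.41 ± 0.10 on the log2 scale, or 1.33-fold lower (edgeR adjusted p = 0.00415). In NGP it held 34.7, 28.6 and 30.7 CPM with DMSO and 44.8, 44.2 and 44.7 CPM with STM2457. Here all treated libraries lay above all controls, a 1.42-fold rise (log2 0.51 ± 0.11, edgeR adjusted p = 0.00627). TDG stood at 0.917 ± 0.132 of the MBD4 level per kb in SK-N-BE2 with DMSO and at 1.58 ± 0.0543 times with STM2457, whereas in NGP the ratio was 1.61 ± 0.178 and 1.56 ± 0.0663. IFT122 on the other strand overlaps 8.31% of the MBD4 exon length, and reads of the 2 genes there cannot be told apart without strand.

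**Figure D3:**
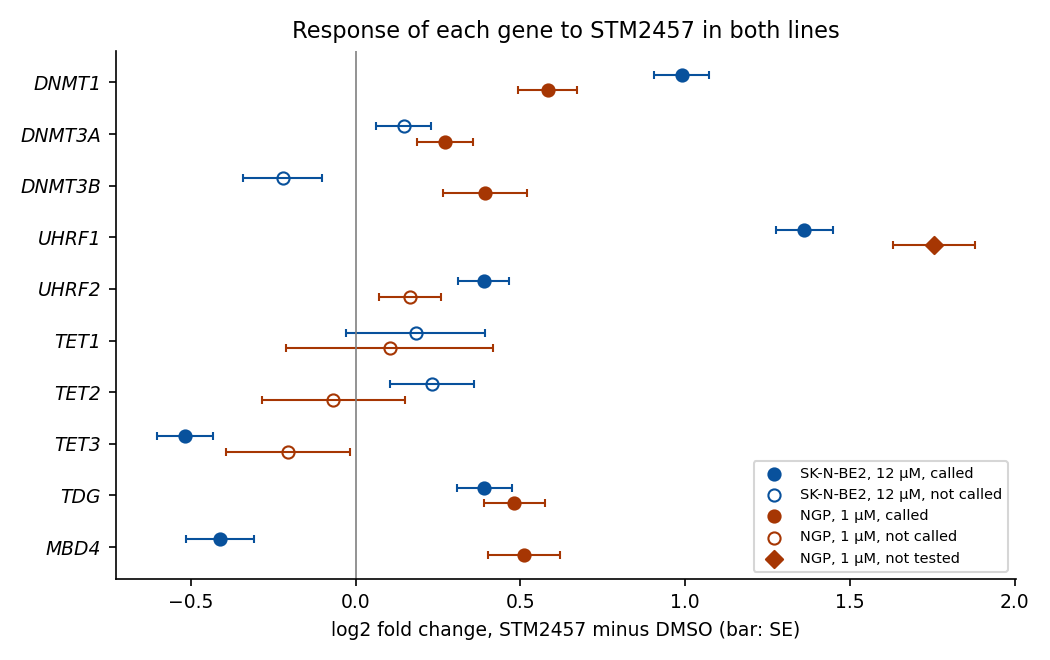
Log2 fold change with STM2457 against DMSO for each gene (horizontal axis), with a bar of 1 SE, for SK-N-BE2 at 12 µM and NGP at 1 µM. Filled circles passed the edgeR test and open circles did not, and the diamond is UHRF1 in NGP, which was not tested. MBD4 is at -0.41 and 0.51 in the 2 lines and DNMT3B at -0.22 and 0.39.

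The doses differ 12 µM to 1 µM, so the difference between responses is a difference between line, dose and run together. Tested directly (SK-N-BE2 response minus NGP response), it passed for 3 of the 9 genes other than UHRF1, where 30.9% of 14731 genes passed (17.0% higher and 13.9% lower). MBD4 differed by -0.91 ± 0.15 log2 units (edgeR adjusted p = 0.000493), with opposite directions that each passed in their own line. DNMT3B differed by -0.60 ± 0.17 (edgeR adjusted p = 0.0138), and DNMT1 by 0.42 ± 0.12 (edgeR adjusted p = 0.0143), with the higher rise in SK-N-BE2. For UHRF1 the fitted difference was -0.38 ± 0.15, given without a test. The differences of UHRF2 (0.24 ± 0.11, edgeR adjusted p = 0.114), TET3 (-0.30 ± 0.22, edgeR adjusted p = 0.314) and TDG (-0.08 ± 0.12, edgeR adjusted p = 0.651) did not pass. The remaining 3 genes, DNMT3A, TET1 and TET2, gave values from -0.11 to 0.31 that did not pass either. That of TET2 passed without the first DMSO replicate of NGP (0.52, edgeR adjusted p = 0.0431) and that of TET3 with the length trends removed (-0.41, edgeR adjusted p = 0.0248). That of UHRF2 passed with the GC trends removed (0.24, edgeR adjusted p = 0.0465).

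With DMSO alone, 7 of the 9 genes differed between SK-N-BE2 and NGP, near the 71.1% of all 14731 genes that did. Of the 7, 3 were higher and 4 lower in SK-N-BE2, where 35.7% of all genes were higher and 35.4% lower. Replicates did not overlap for 6 of the 9, with 2 higher and 4 lower, beside 68.9% of all genes, 35.0% higher and 33.8% lower. DNMT1 was lower in SK-N-BE2 by a log2 difference of -0.86 ± 0.08 (edgeR adjusted p = 3.49e-07), DNMT3B by -0.85 ± 0.12 (edgeR adjusted p = 1.72e-05) and TET1 by -1.09 ± 0.31 (edgeR adjusted p = 0.00616). TET3 (0.74 ± 0.15, edgeR adjusted p = 0.000575), MBD4 (0.62 ± 0.11, edgeR adjusted p = 0.000118) and TET2 (0.46 ± 0.20, edgeR adjusted p = 0.0475) were higher there. TDG was lower by -0.19 ± 0.08 (edgeR adjusted p = 0.0499), a call lost under 20 of 21 alternatives, and that of TET2 was lost under 8 of 21. Without the first DMSO replicate of NGP, TET2 was at 0.26 (edgeR adjusted p = 0.118), and without that of SK-N-BE2 at 0.30 (edgeR adjusted p = 0.204). DNMT3A (-0.12 ± 0.08) and UHRF2 (-0.02 ± 0.08) did not pass. UHRF1, untested here, was at -0.54 ± 0.11.

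Per kb of exon, DNMT1 had the highest mean of the 10 genes in each group, from 17.7 ± 1.34 CPM per kb (SD, n = 3) in SK-N-BE2 with DMSO to 48.2 ± 1.21 in NGP with STM2457. In SK-N-BE2 with DMSO its replicates overlapped those of DNMT3A (15.3 ± 1.17), which overlapped MBD4 (14.4 ± 2.02), which in turn overlapped TDG (13.1 ± 0.728). UHRF1 was sixth there at 9.45 ± 0.791 and moved to the second place with STM2457 at 24.9 ± 1.24, apart from its neighbours on both sides. In NGP it went from the fourth place at 13.7 ± 1.65, overlapping TDG, to the second at 46.2 ± 4.64, overlapping DNMT1. DNMT3B, TET1 and TET2 took the lowest 3 places in every group, between 1.15 and 4.62 CPM per kb.

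Genes that work beside the 10 were followed as lists, also chosen with earlier results of these data known. Their counts stand beside 26.9% of all genes called higher and 27.8% called lower for SK-N-BE2. The shares for NGP were 19.4% higher and 22.2% lower. Of 9 tested partners and regulators of the methylation writers, 7 rose and 1 fell in SK-N-BE2, and 6 rose in NGP. None of these 9 was called lower in NGP by edgeR, also at an unadjusted p under 0.05, or by DESeq2. Their median log2 fold changes were 0.50 and 0.63, beside -0.02 and -0.03 over all genes tested. CDCA7, which targets the remodeller HELLS to hemimethylated DNA, rose by 1.27 ± 0.08 on the log2 scale in SK-N-BE2 (edgeR adjusted p = 4.74e-08), from 40.0 to 99.0 CPM. PCNA, the sliding clamp that DNMT1 binds, rose by 1.17 ± 0.09 there (edgeR adjusted p = 2.75e-07), and ZBTB24, an activator of CDCA7, fell by 0.63 ± 0.10 (edgeR adjusted p = 0.000135). In NGP the largest rises were those of LIG1, the ligase of replicated DNA that UHRF1 also binds (log2 1.50 ± 0.14, edgeR adjusted p = 9.43e-05), and HELLS (log2 1.08 ± 0.11, edgeR adjusted p = 0.000149). DNMT3L, the inactive cofactor of the de novo enzymes, had at most 2 reads in any group, and DPPA3, an inhibitor of UHRF1, had 0 reads.

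All 28 replication factors, such as the MCM helicase, were tested: 27 rose in SK-N-BE2 (median log2 1.02), where 26.9% of all genes did, and 20 in NGP (median 0.58), where 19.4% did. None was called lower by edgeR in either line, and at an unadjusted p under 0.05 there were 0 in SK-N-BE2 and 1 in NGP. DESeq2 called 0 and 1. ORC1, of the origin recognition complex, rose by 1.86 ± 0.11 (edgeR adjusted p = 2.41e-08) and GINS2, of the replicative helicase, by 1.69 ± 0.12 (edgeR adjusted p = 2.01e-07) in SK-N-BE2. In NGP, CHAF1B, of the histone chaperone CAF-1, rose by 1.34 ± 0.10 (edgeR adjusted p = 3.36e-05) and RRM2, of ribonucleotide reductase, by 1.33 ± 0.09 (edgeR adjusted p = 2.76e-05). CDT1, the licensing factor, was the 1 gene that did not pass in SK-N-BE2 (log2 0.15), and it was at -0.42 in NGP (edgeR adjusted p = 0.0651). Their part in the levels of DNMT1 and UHRF1 was not tested.

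In base excision repair, 9 of 17 genes rose in SK-N-BE2 (median 0.34), and 10 rose and 1 fell in NGP (median 0.54), where 26.9% of all genes rose in SK-N-BE2 and 19.4% rose in NGP. None was called lower in SK-N-BE2 by edgeR or DESeq2, with 1 lower at an unadjusted p under 0.05. Without the first DMSO replicate of SK-N-BE2, 8 were called higher and 1 lower there by edgeR. Without that of NGP, 13 were called higher and 1 lower in NGP. FEN1, the flap endonuclease, and UNG, the uracil glycosylase, led in both lines. FEN1 rose by 1.56 ± 0.14 in SK-N-BE2 (edgeR adjusted p = 8.35e-07) and by 1.05 ± 0.15 in NGP (edgeR adjusted p = 0.00086). UNG rose by 0.96 ± 0.08 (edgeR adjusted p = 5.06e-07) and by 1.33 ± 0.13 (edgeR adjusted p = 0.000136). NEIL2, another glycosylase, fell by 0.75 ± 0.14 in NGP (edgeR adjusted p = 0.00316).

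The 7 TET partners and enzymes of 2-oxoglutarate supply showed 2 rises and 4 falls in SK-N-BE2 (median -0.30), and 2 rises and 1 fall in NGP (median 0.07). The share called is near the 41.7% of all genes in NGP, and the share of rises near the 26.9% in SK-N-BE2, where 27.8% of all genes fell. IDH1, which makes 2-oxoglutarate in the cytosol, fell in both lines. It went from 342.9 to 87.5 CPM in SK-N-BE2 (log2 -2.01 ± 0.10, edgeR adjusted p = 6.28e-09) and from 162.9 to 106.1 CPM in NGP (log2 -0.62 ± 0.10, edgeR adjusted p = 0.00145). IDH2, its mitochondrial counterpart, rose by 0.48 ± 0.09 in SK-N-BE2 (edgeR adjusted p = 0.000414), where OGT, the glycosyltransferase that binds TET proteins, fell by 0.69 ± 0.11 (edgeR adjusted p = 0.000201). D2HGDH, which clears D-2-hydroxyglutarate, an inhibitor of TET enzymes, rose by 0.95 ± 0.15 in NGP (edgeR adjusted p = 0.0016). CXXC4, a partner of TET2, rose by 0.50 ± 0.15 in NGP (edgeR adjusted p = 0.028), a call lost without the first or the third STM2457 replicate. Without the first DMSO replicate of NGP, 3 of these genes were higher and 2 lower there.

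Of 9 genes from families that include methyl-CpG readers, 3 rose and 3 fell in SK-N-BE2 (median -0.01), and 2 fell in NGP (median -0.02). These shares are near the 54.7% of all genes called in SK-N-BE2 and the 22.2% called lower in NGP. None was called higher in NGP by edgeR or DESeq2, with 1 at an unadjusted p under 0.05. Without the first DMSO replicate of NGP, 2 were called higher and 3 lower there. ZBTB4 (log2 0.52 ± 0.10, edgeR adjusted p = 0.000617) and MBD3 (log2 0.44 ± 0.09, edgeR adjusted p = 0.000979), a subunit of the NuRD complex, rose in SK-N-BE2. ZBTB38, a zinc finger reader, fell by 0.48 ± 0.09 in SK-N-BE2 (edgeR adjusted p = 0.000389) and by 0.68 ± 0.18 in NGP (edgeR adjusted p = 0.0149), the latter call lost without the first or the second STM2457 replicate. MBD2, the other MBD protein of NuRD, fell by 0.42 ± 0.10 in SK-N-BE2 (edgeR adjusted p = 0.00238). MBD6 fell by 0.39 ± 0.09 in NGP (edgeR adjusted p = 0.00851), a call lost without the first STM2457 replicate or with the GC trends removed.

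**Figure D4:**
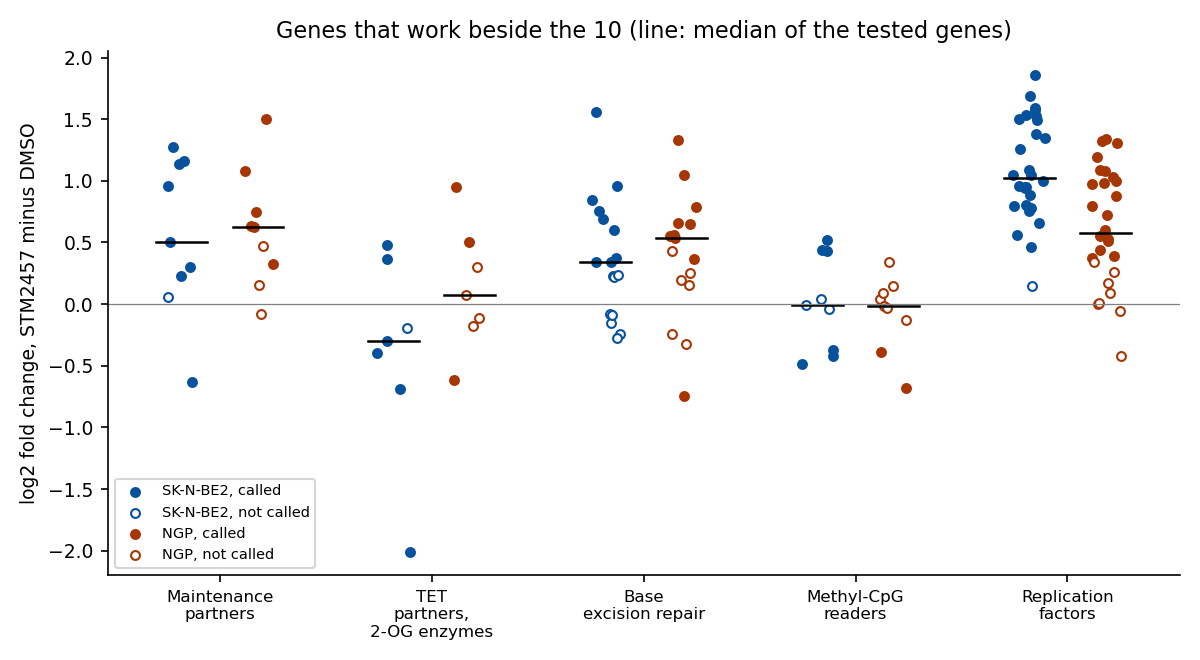
Log2 fold change with STM2457 against DMSO (vertical axis) of each tested gene of 5 lists, in SK-N-BE2 and NGP, with a line at the list's median. Filled points passed the edgeR test. In SK-N-BE2, 27 of 28 replication factors lie above 0 and passed, and IDH1 is the lowest point at -2.01.

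Germline genes whose promoters are known to be methylated in somatic cells were nearly silent. Of 22 such genes, 20 stayed below 1 CPM in every library of SK-N-BE2 and 21 in every library of NGP. In SK-N-BE2, 6 had enough reads to enter the fit. TDRD9, TEX101 and TKTL1, the last 2 named after their values were seen, entered it through their DMSO libraries, so their lower levels with STM2457 are given without a test. TDRD9, a piRNA pathway helicase, went from 1.82 to 0.0577 CPM, or from 285 to 9 reads over 3 libraries each. TEX101 went from 78 to 19 reads. TKTL1 went from 95 to 0 reads, and its DMSO libraries were uneven (0.608 ± 0.346 CPM, SD, n = 3). In NGP, 4 entered the fit, and 0 were called in either direction by edgeR or DESeq2 or at an unadjusted p under 0.05.

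The genes whose pattern was most like that of UHRF1 over the 12 libraries, after the mean of each line was subtracted, were BOC (Pearson r = 0.9925), UNG (0.9920) and POLG (0.9916), among 9779 genes whose mean over all libraries reached 10 CPM. For TET3, the member with the largest called fall in SK-N-BE2, they were CDK13 (0.9865), LCOR (0.9825) and SP1 (0.9793). The libraries share treatment groups and, for TET3, the length trend of the NGP controls, so these coefficients only describe likeness.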

How the data were processed

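SMART cDNA libraries were made from polyadenylated RNA, per the labels' protocols. The deposited values are raw counts of reads per gene, not normalized. Per the file headers, the authors ran featureCounts 2.0.5 in its paired mode, counting exons by gene name (GENCODE 33, protein-coding, GRCh38), without strand, read-pair counting or multi-mapping reads. The submitters' processing notes list FastQC 0.11.5, Trimmomatic 0.36, HISAT2 2.1.0 and Subread 1.5.3. Of counts from 1 to 20, 72.1% to 75.4% were even, against 49.3% to 51.0% above 1000, so a fragment often added 2.

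Samples were grouped by line and treatment from their titles. Genes were tested with edgeR 4.0.16 in R 4.3.3 (filterByExpr with a minimum count of 10, TMM, quasi-likelihood test, adjusted p under 0.05), each line on its 6 libraries and contrasts between lines on all 12. Alternatives were other scalings and filters, DESeq2 1.42.0, halved counts, a replicate block, each library left out, and, chosen after seeing the data, offsets for exon length and GC content in 20 bins. The procedure was tested on simulated data. Replicates differed by more than sampling noise (chi-square per degree of freedom 2.83 to 97.0) and were kept separate. Named list genes were the 2 called genes per direction and line with the largest log2 fold change at 1 CPM or more. For UHRF1 and for the largest called rise (UHRF1) and fall (TET3) in SK-N-BE2, the 3 most similar genes are named. The members and lists were chosen with earlier results of these data known. Values of 2 of the listed and marker genes are not reported here.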

Additional observations from a re-analysis of the deposited data

Results flagged for a closer look

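The response to STM2457 differed between SK-N-BE2 and NGP in 3 genes by a test of the difference itself (edgeR, SK-N-BE2 response minus NGP response), 3 of the 9 tested, near the 30.9% of all genes that did. The log2 difference was 0.42 for DNMT1, -0.60 for DNMT3B and -0.91 for MBD4. Each call held under 21 of 21 alternatives, with adjusted p up to 0.0427, 0.0375 and 0.00254. Line, dose and sequencing run cannot be told apart in these differences.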

How the results depend on the processing

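The calls of DNMT1, UHRF1, UHRF2, TET3, TDG and MBD4 in SK-N-BE2, and of DNMT1, TDG and MBD4 in NGP, held under 16 of 16 alternatives each. The number of genes called in NGP was 3 with the replicate block and 3 to 8 when 1 replicate was left out, beside 5. In SK-N-BE2 it was 6 to 8 over all alternatives, for the difference between responses 3 to 4, and between the DMSO groups 5 to 7. Same-numbered deviations correlated at -0.078, 0.078 and 0.014 in SK-N-BE2 and at 0.004, -0.114 and 0.022 in NGP. Deviations with other numbers correlated at -0.179 to 0.165 in SK-N-BE2 and at -0.131 to 0.146 in NGP. With 3 replicates per group, these values cannot settle whether replicate numbers pair the samples. Under the block, DNMT3A (edgeR adjusted p = 0.0931) and DNMT3B (0.0578) lost their calls in NGP, and TET2 (0.0512) and TDG (0.101) between the DMSO groups. Over all genes, the block left 7522 calls in SK-N-BE2, 5026 in NGP, 4025 for the difference and 10233 between the DMSO groups.

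The sign changed in values that had not passed. When 1 replicate was left out, TET1 was -0.056 to 0.517 in SK-N-BE2 and -0.231 to 0.353 in NGP, TET2 in NGP was -0.294 to 0.095, and the difference of TET1 between responses was -0.167 to 0.406. UHRF2 between the DMSO groups was -0.028 to 0.049 in this way. It was 0.006 with DESeq2 and with its size factors in edgeR, 0.036 with upper-quartile factors, 0.002 with a filter at 1 CPM, 0.035 with length offsets and 0.008 with GC offsets. The cause was not tested. Each of the 10 genes reached at least 7.0 CPM in every library, and each group had 3 replicates.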
